A study of Rattus norvegicus with 18 samples.

Results

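The levels of 9 genes that mark the pineal gland and photoreceptors (Aanat, Asmt, Tph1, Crx, Aipl1, Gnb3, Guca1a, Gngt2 and Sag) were followed on 18 arrays of rat whole brain. They were taken by name, using the gene name in the scanner files or the current symbol of the accession listed there. All 9 were found, with 12 of the 30367 probes of the array design, among 26554 gene names. The arrays held total RNA from untreated rats of 3 strains, each at 3 and at 6 weeks of age, with 3 arrays for each of the 6 groups. WKY is the normotensive strain, SHR the spontaneously hypertensive rat, and SHRSP the stroke-prone SHR, and the study compared the hypertensive strains with WKY. Each array was labelled as a biological replicate, and brains were kept in RNAlater before total RNA was extracted. Sex, the hour of collection and the way the pineal gland was handled during dissection were not given in the sources used here.

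The pineal gland makes melatonin from serotonin, mostly at night, under the control of the brain's clock. Tph1 encodes tryptophan hydroxylase 1, which makes the serotonin of the pineal gland, Aanat the arylalkylamine N-acetyltransferase whose activity sets the daily rhythm of melatonin, and Asmt the methyltransferase of the last step. Pinealocytes and retinal photoreceptors share an ancestry and a transcription factor, Crx, and the mammalian pineal gland still transcribes many genes of the light response. Among these are Sag (the arrestin of rods, which ends the light response), Gnb3 and Gngt2 (beta and gamma subunits of the cone G protein transducin), Guca1a (an activator of retinal guanylate cyclase that senses calcium) and Aipl1 (a chaperone of the photoreceptor phosphodiesterase).

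Each probe is a stretch of 60 bases that captures Cy3-labelled cRNA, and its brightness is the only measurement made. The probes of Crx, of Gnb3 and of Guca1a, and the second probes of Gngt2 and of Sag, are printed here because they define what was detected for these members. Positions are on rn4, as in the scanner files. The coordinates of the Gnb3 probe cover 944 bases and those of the Guca1a probe 346, more than the probe's own length.
Crx (chr1:76190668-76190727, minus strand): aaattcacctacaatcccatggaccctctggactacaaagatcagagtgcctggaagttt
Gnb3 (chr4:160958006-160958949, minus strand): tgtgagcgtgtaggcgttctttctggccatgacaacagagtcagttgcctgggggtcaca
Guca1a (chr9:9056408-9056753, plus strand): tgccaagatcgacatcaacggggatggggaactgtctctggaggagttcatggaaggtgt
Gngt2, second probe (chr10:84557202-84557261, plus strand): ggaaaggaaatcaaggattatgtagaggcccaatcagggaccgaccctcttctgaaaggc
Sag, second probe (chr9:86770545-86770604, plus strand): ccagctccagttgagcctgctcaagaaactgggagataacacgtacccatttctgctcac

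Levels are given as log2 of the processed signal relative to the 75th percentile of the same array, so that 0 is the level of a probe at that percentile and each unit is a doubling. Signals at the 75th percentile were between 1957 and 2478 intensity units, between 81.8% and 87.5% of spots were well above background on each array, and no spot of any array was saturated. Markers of brain cells were bright on all 18 arrays: the neuronal gene Snap25 lay between 3.52 and 4.01, the astrocytic gene Aldoc between 6.77 and 7.08 and the oligodendrocytic gene Mbp between 7.26 and 7.57. Before the comparisons, one irregularity bears on the labels. Of 52 genes that differed at least 2-fold between the arrays labelled SHRSP and SHR, with a limma adjusted p under 0.05, at both ages, 47 differed in opposite directions at 3 and at 6 weeks and 5 in the same direction. The names used below are those of the labels, and comparisons of WKY with both hypertensive strains together do not depend on which of the labels SHR and SHRSP an array carries. Comparisons that take SHR or SHRSP alone, such as the age changes within each, do depend on these labels. In whole-brain RNA, fewer cells of a type and less RNA per cell cannot be told apart.

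The clearest pattern among the members was carried by single arrays and not by groups. Tph1 stood at 0.50 on SHRSP replicate 3 at 6 weeks, 0.38 on SHRSP replicate 1 at 6 weeks, 0.13 on SHRSP replicate 2 at 3 weeks and -0.46 on SHR replicate 2 at 6 weeks. On the other 14 arrays it lay between -5.75 and -4.89, with a median of -5.38. The step from the fourth to the fifth highest array was 4.43 on the log2 scale, or 21.6-fold. Each of these arrays had fellows of the same strain and age without the signal: Tph1 on SHRSP replicate 3 at 6 weeks was 57.4-fold above replicate 2 of that group, and Tph1 on SHRSP replicate 2 at 3 weeks was 53.9-fold above the lowest array of its group. No WKY array and no SHR array at 3 weeks was among the 4. They lay on 3 of the 5 slides, each of which also held arrays low in Tph1. The second Tph1 probe, at another position of the gene, gave the same 4 arrays in the same order, at -1.18, -1.58, -1.78 and -2.14, against -6.43 at most on the other 14.

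Asmt followed the same 4 arrays. Its level was -2.36 on SHRSP replicate 3 and -2.50 on SHRSP replicate 1 at 6 weeks, -2.73 on SHRSP replicate 2 at 3 weeks and -3.18 on SHR replicate 2 at 6 weeks. The other 14 arrays lay between -5.22 and -4.80, all of them above background. Tph1 and Asmt, the enzymes that begin and end the path from tryptophan to melatonin, thus had the same 4 arrays on top in the same order, with a gap of 1.62 (3.07-fold) for Asmt.

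Aanat, the enzyme between them, did not. Its highest level, -3.52, was on WKY replicate 2 at 3 weeks, followed by -3.71 on SHRSP replicate 2 at 3 weeks, -3.80 on SHR replicate 2 at 6 weeks and -3.97 on SHR replicate 1 at 6 weeks. SHRSP replicate 3 at 6 weeks, the highest array for Tph1 and Asmt, had -4.16, between replicates 1 (-4.00) and 2 (-4.26) of its own group. What did separate the Aanat levels was WKY at 6 weeks, whose arrays lay at -5.29, -5.10 and -5.08, below all 15 other arrays.

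Crx, the transcription factor, was near the limit of detection. Its only probe was well above background on 7 of the 18 arrays, including all 4 of those high in Tph1 and 3 of the other 14. Its highest level was -5.31, on SHRSP replicate 1 at 6 weeks, and SHRSP replicate 2 at 3 weeks followed at -6.60. The other 2 arrays high in Tph1 had -7.05 and -7.32, within the range of the remaining 14 (-7.98 to -6.65). Crx did not meet the requirement of being above background on every array of some group, so 8 of the 9 members were tested.

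The 5 photoreceptor members all had these 4 arrays as their highest. Aipl1 had -1.0, -1.35, -1.69 and -2.10 on them, in the order of Tph1, against -4.61 at most elsewhere. That next array was SHRSP replicate 2 at 6 weeks, which was also the highest of the remaining 14 for Gnb3 and Gngt2. Gnb3 had -2.87 and -2.85 on SHRSP replicates 3 and 1 at 6 weeks, -3.46 on SHRSP replicate 2 at 3 weeks and -3.74 on SHR replicate 2 at 6 weeks, against -5.62 at most elsewhere. The transducin subunits thus shared their 4 arrays, Gngt2 with -0.73, -0.84, -1.38 and -1.57 against -2.78 at most elsewhere, a gap of 1.20. The second Gngt2 probe gave the same 4 arrays in the same order, with a gap of 1.09.

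Sag and Guca1a differed in how far the 4 arrays stood apart. The main Sag probe had -1.93, -2.15, -3.09 and -4.07 on them and between -6.92 and -5.74 on the other 14. The second Sag probe was above background on these 4 arrays and on no other, at -6.12, -5.98, -6.80 and -6.90. Guca1a had -2.47, -2.52, -3.43 and -3.78 on the 4 arrays, but SHR replicate 3 at 3 weeks reached -4.01 and WKY replicate 1 at 3 weeks -4.52, so its gap was 0.24, the smallest among the 7 members that shared the pattern. The plot of levels by array shows all 9 members.

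**Figure D1:**
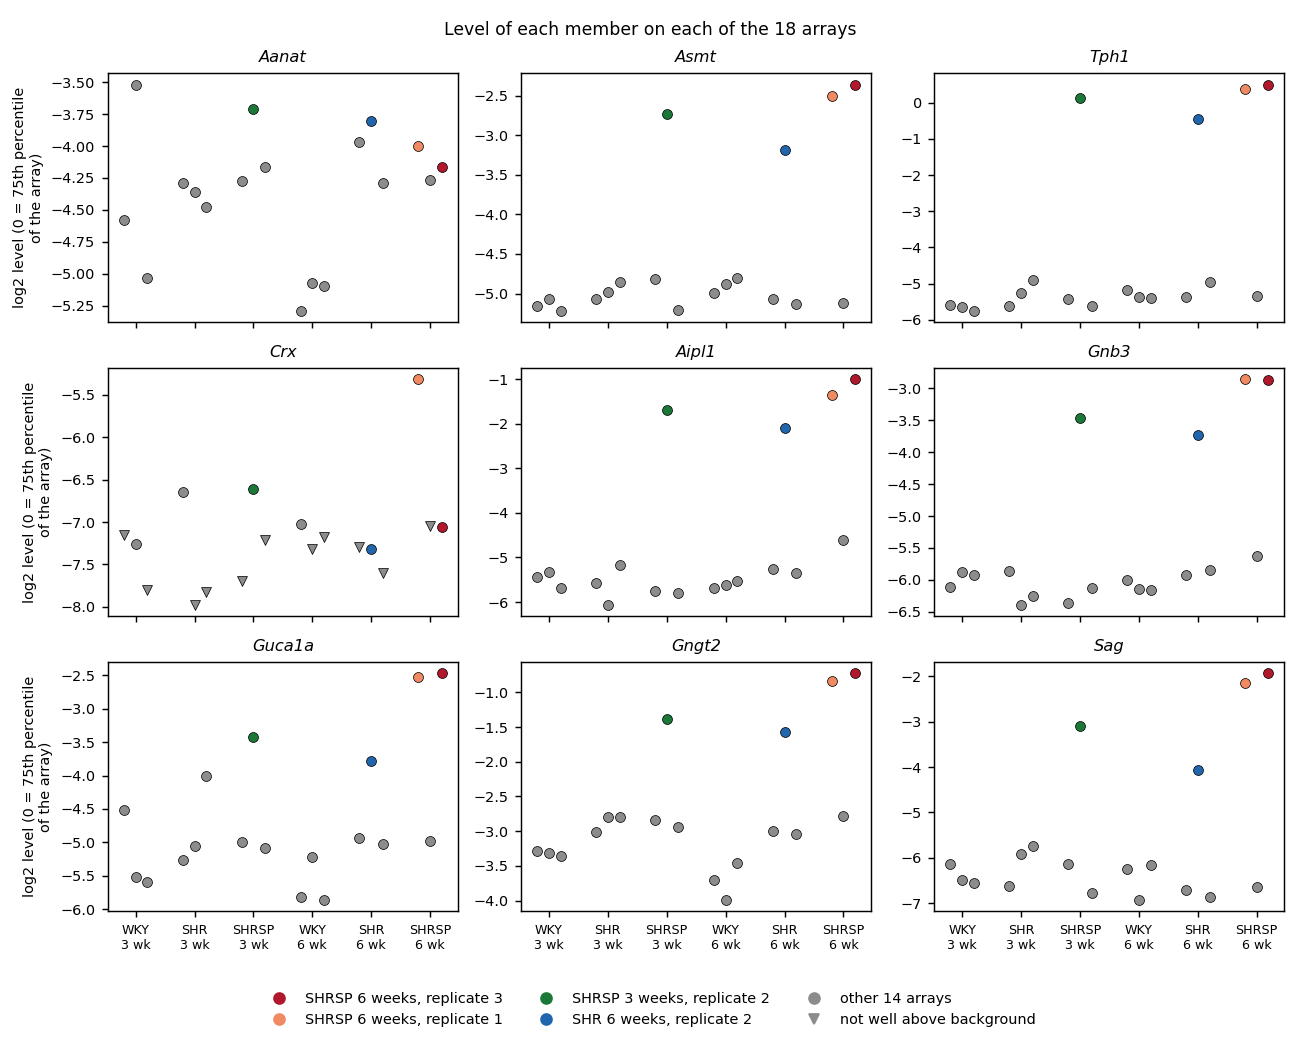
Log2 level of each member (vertical axis, 0 is the 75th percentile of the array) on the 18 arrays, grouped by strain and age on the horizontal axis, with 1 point an array and its replicates side by side. The 4 arrays highest in Tph1 are coloured, and triangles mark values not well above background: Tph1, Asmt, Aipl1, Gnb3, Guca1a, Gngt2 and Sag are highest on the coloured arrays, Aanat and Crx are not.

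In all, 7 of the 9 members had the 4 arrays on top, and for 6 of them the gap was over 1. Of the 7, 6 ranked the 4 arrays in the order of Tph1, and Gnb3 exchanged the highest pair. The 4 arrays were picked by Tph1, so its own place among the 7 and in that order was fixed in advance. With the background corrected by normexp, the gaps of the 7 ranged from 0.18 (Guca1a) to 3.58 (Tph1), and with quantile normalization from 0.05 (Guca1a) to 4.31 (Tph1), so the 4 arrays remained on top under both.

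How much each member gained on the 4 arrays was then set out on the linear scale, as the increment over the member's median of the 18 arrays, in percent of the array's 75th percentile. For Tph1 the increments were 139 percent on SHRSP replicate 3 and 128 percent on SHRSP replicate 1 at 6 weeks, 107 percent on SHRSP replicate 2 at 3 weeks and 70.4 percent on SHR replicate 2 at 6 weeks. Relative to the last of these, the array with the least signal, they were 1.98, 1.81 and 1.52 times as large. Asmt gave nearly the same proportions, 2.08, 1.84 and 1.51, although its increment on SHR replicate 2 was 7.89 percent. Aipl1 (2.27, 1.76 and 1.36), Gngt2 (2.29, 2.08 and 1.23) and Gnb3 (2.06, 2.08 and 1.27) were close to them. Sag and Guca1a had steeper proportions: the increments of Sag were 5.40, 4.61 and 2.26 times that on SHR replicate 2, and those of Guca1a 3.55, 3.41 and 1.47 times. These proportions have 1 array each, so they carry no error and were not tested.

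**Figure D2:**
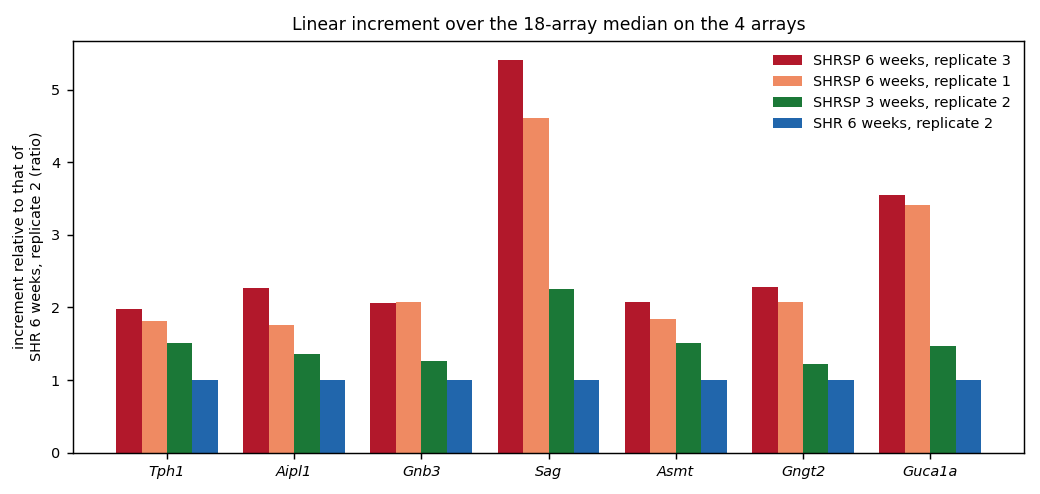
Increment of the 7 members over their 18-array median on the 4 arrays highest in Tph1, on the linear scale, divided by the increment on SHR replicate 2 at 6 weeks (vertical axis, ratio). Bars are single arrays: Tph1, Asmt, Aipl1, Gnb3 and Gngt2 stay between 1.23 and 2.29, whereas Sag reaches 5.40 and Guca1a 3.55.

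All 21124 genes measured on every array were searched for the same arrangement. In 23 genes (0.109%) the 4 arrays were the highest, and 7 of the 23 were members, Tph1 among them by definition. In no gene were they the 4 lowest. The gap exceeded 1 in 11 genes, of which 6 were members. The other 5 were Guca1b (a second activator of guanylate cyclase, gap 2.76), Mpp4 (a scaffold protein of photoreceptor synapses, 1.12), Pde6h (the inhibitory subunit of cone phosphodiesterase, 1.04) and 2 transcripts without an established symbol (2.88 and 2.87). Tph1 had the widest gap of all genes tested, but the 4 arrays were picked by its own level.

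**Figure D3:**
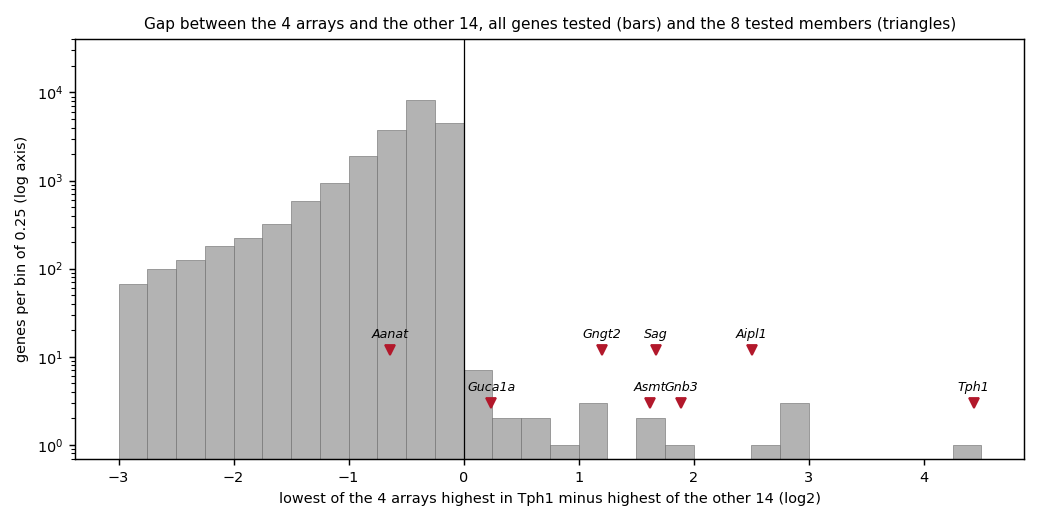
Number of genes (vertical axis, log scale) by the gap between the lowest of the 4 arrays highest in Tph1 and the highest of the other 14 (horizontal axis, log2, bins of 0.25, genes under -3 not drawn). Triangles mark the 8 tested members: Tph1 lies farthest to the right at 4.43, 6 other members lie above 0, and Aanat lies at -0.64.

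The search over genes left out probes that were not above background throughout any group, so it was repeated on the 30200 probes with a value on all arrays. The 4 arrays were the highest for 42 probes and the lowest for none. In 20 probes the gap exceeded 1, and in 19 of these the probe was above background on all 4 arrays. Of these 19, 6 belonged to genes left out of the tests. The genes named from them here were chosen after their values were seen. Miox, which encodes an enzyme of inositol breakdown, had -2.29, -2.24, -3.05 and -3.10 on the 4 arrays in the order of Tph1 and -7.64 at most elsewhere, where all but 1 of the 14 values were not above background. Gngt1, the gamma subunit of rod transducin, had -2.67, -2.74, -3.54 and -4.38 against -6.04 at most elsewhere. Opn1sw, the opsin of short-wavelength cones, Prph2, a structural protein of photoreceptor discs, and Lrit1 were above background on these 4 arrays and on no other, so no size is given for their gaps.

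The genes with profiles most like those of the melatonin genes were ranked by Pearson's r over the 18 arrays, against the mean of the centred log2 levels of Aanat, Asmt and Tph1, since Crx was not kept. The 10 highest with an established symbol were Guca1b (r = 0.99, Spearman's rank correlation = 0.70), Slc39a4 (0.97 and 0.57), Mpp4 (0.96 and 0.69), Fabp12 (0.94 and 0.53), Pde6h (0.93 and 0.54), Spink4 (0.93 and 0.59), Drd4 (0.89 and 0.67), Lhx4 (0.88 and 0.43), Gch1 (0.87 and 0.81) and Rom1 (0.85 and 0.55). Drd4 is the dopamine D4 receptor, Lhx4 a LIM homeobox factor, Gch1 makes the cofactor of tryptophan hydroxylase and Rom1 is a partner of Prph2 in photoreceptor discs. All r values rest on the 4 arrays: over the other 14 they were 0.31, 0.13, 0.40, -0.09, 0.12, 0.10, 0.12, -0.08, 0.52 and 0.08 in the same order. Against Asmt alone the 10 genes had r between 0.86 and 0.98, and against Aanat alone between 0.18 and 0.55. Rank correlations are lower because the order of the 14 low arrays enters them.

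Of the other genes of melatonin synthesis, release and reception, 1 of 15 on the array had the 4 arrays on top. That was Gch1, between -3.78 and -3.04 on them and at most -3.79 elsewhere. Tph2, the tryptophan hydroxylase of brain neurons, lay between -3.20 and -2.33 on the 18 arrays and between -3.12 and -2.75 on the 4. Among the factors that specify the pineal gland, 1 of 12 had the 4 arrays on top, Lhx4 (-4.57 to -3.93 against -4.82 at most), while Otx2 (-1.30 to -0.46) and Neurod1 (1.53 to 2.25) did not set them apart. Among the genes of the pineal response to cyclic AMP and night, 1 of 9 did, Drd4 (-5.56 to -5.23 against -5.69 at most). Of the phototransduction genes outside the members, 9 of 36 on the array had the 4 arrays on top, but for 2 of the 9 this ranks values not above background: Pde6c was above background on no array and Cnga1 on 3 of the 4. Of the 19 clock genes none did. Among all genes measured on every array the share was 0.109%, so a count of 0 is not particular to the clock genes.

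Marker lists of neighbouring tissues were set beside these values. Summed over the 9 members, the level was 336, 306, 232 and 169 percent of the 75th percentile on the 4 arrays and between 22.7 and 38.4 percent on the other 14. Tph1, by which the 4 arrays were picked, contributed 141, 130, 109 and 72.8 percent of the 75th percentile to these sums. Part of this contrast was therefore fixed in advance. The summed level of 7 retinal photoreceptor markers was 16.0, 20.1, 14.1 and 22.8 percent on the same arrays, inside the range of the other 14 (10.3 to 27.1 percent). In this list 2 of 7 genes, Opn1sw and Pde6c, had the 4 arrays on top, Pde6c without being above background on any array. The transducin gene Gnat1 lay between -3.38 and -2.54 on the 4 arrays and reached -2.29 elsewhere. Opn1sw, between -6.58 and -4.79 on the 4 arrays, adds little to a linear sum beside Gnat1. The summed level therefore does not show whether dim markers of this list changed. None of 4 habenula markers, 3 markers of ependyma and subcommissural organ, 8 of choroid plexus, 8 of meninges, 4 of blood, 4 of raphe neurons and 4 each of neurons, astrocytes and oligodendrocytes had the 4 arrays on top. With a share of 0.109% among all genes measured on every array, these counts of 0 cannot be told from that share. Pituitary markers were high on another array: their summed level was 8471 percent on SHRSP replicate 2 at 6 weeks, the one array of its group low in Tph1, against between 52.96 and 585 percent on the other 17. The part that pineal or pituitary tissue taken along with the brain had in these levels was not tested.

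**Figure D4:**
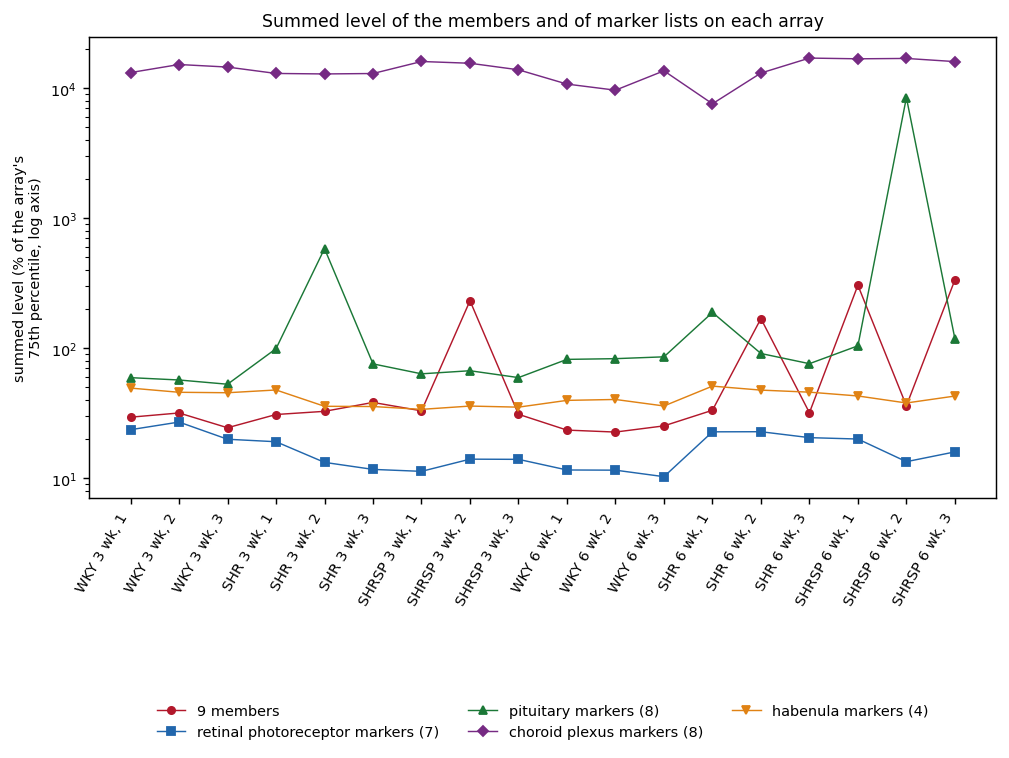
Summed level of the 9 members and of 4 marker lists on each of the 18 arrays (vertical axis, percent of the array's 75th percentile, log scale; lines only join the points of a list). The members reach between 169 and 336 percent on 4 arrays, the pituitary markers to 8471 percent on SHRSP replicate 2 at 6 weeks, and the retinal photoreceptor markers stay between 10.3 and 27.1 percent. The sum of the members includes Tph1, by which the 4 arrays were picked. Dim genes weigh little in these linear sums.

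The windows upstream of the members were read for 2 motifs, the core TAATCC bound by Crx and Otx factors and the cyclic AMP response element TGACGTCA, each on both strands. RefSeq windows on GRCr8, from 250 bases before to 50 after the gene start, were held for 7 of the 9 members, Gnb3 and Gngt2 not among them. TAATCC occurred in 4 of the 7, at Crx, Guca1a, Aipl1 and Aanat, each time as GGATTA on the gene's own strand, and in 7.11% of all 27457 windows. Crx had it in 2 places. Crx and Aanat are the members that did not share the 4 arrays, so among the 5 members with a window that did share them, 2 held TAATCC. TGACGTCA, which reads the same on both strands, occurred in 1 of the 7, at Asmt, and in 1.91% of all windows. These matches are letters in a window and no measure of binding, and with 7 windows no share was tested. The 250 bases before the start are printed for a melatonin or photoreceptor member with each motif and for Tph1 and Sag, which had neither, with matches in capitals.
Asmt (chr12:21423337-21423586, minus strand): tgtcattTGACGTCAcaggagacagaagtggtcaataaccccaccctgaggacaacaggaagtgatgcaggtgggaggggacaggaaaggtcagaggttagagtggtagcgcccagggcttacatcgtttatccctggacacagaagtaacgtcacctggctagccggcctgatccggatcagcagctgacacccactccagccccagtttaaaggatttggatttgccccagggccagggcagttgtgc
Aanat (chr10:102326073-102326322, plus strand): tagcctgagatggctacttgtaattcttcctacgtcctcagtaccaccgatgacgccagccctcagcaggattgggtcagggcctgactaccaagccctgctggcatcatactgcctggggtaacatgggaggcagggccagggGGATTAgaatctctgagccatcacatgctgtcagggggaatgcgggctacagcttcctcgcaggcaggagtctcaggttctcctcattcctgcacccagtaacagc
Aipl1 (chr10:57163456-57163705, minus strand): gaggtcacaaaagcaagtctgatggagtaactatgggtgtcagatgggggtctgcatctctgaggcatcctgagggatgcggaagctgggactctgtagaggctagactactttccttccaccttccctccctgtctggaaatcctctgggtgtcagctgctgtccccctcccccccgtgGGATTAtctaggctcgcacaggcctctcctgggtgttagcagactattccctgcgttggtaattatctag
Guca1a (chr9:21086392-21086641, plus strand): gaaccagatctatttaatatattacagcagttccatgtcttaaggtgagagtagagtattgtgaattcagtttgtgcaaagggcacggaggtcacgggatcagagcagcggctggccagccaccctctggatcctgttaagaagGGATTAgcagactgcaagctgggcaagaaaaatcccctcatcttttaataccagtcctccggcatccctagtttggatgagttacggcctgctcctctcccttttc
Tph1 (chr1:106314629-106314878, minus strand): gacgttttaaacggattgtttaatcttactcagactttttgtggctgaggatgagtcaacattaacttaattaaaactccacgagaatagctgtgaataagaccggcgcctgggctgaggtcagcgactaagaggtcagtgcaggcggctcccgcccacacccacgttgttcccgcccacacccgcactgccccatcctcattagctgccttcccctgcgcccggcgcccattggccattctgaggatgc
Sag (chr9:95916947-95917196, plus strand): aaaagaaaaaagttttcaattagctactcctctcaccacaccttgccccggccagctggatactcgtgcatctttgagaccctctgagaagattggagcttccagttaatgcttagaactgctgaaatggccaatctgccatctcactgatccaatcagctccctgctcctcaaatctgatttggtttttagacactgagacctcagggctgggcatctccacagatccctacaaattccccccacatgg

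The design asks how the strains and ages differ, and for each member 13 such comparisons were fitted with limma across 21204 genes, with p-values adjusted by Benjamini and Hochberg over all of them and 0.05 as the threshold for a call. Between WKY and SHRSP at 6 weeks, 5 of the 8 tested members were higher in SHRSP, where 18.6% of all genes were called higher and 30.4% were called in either direction. Gngt2 was higher by 2.27 ± 0.52 (SE, limma adjusted p = 0.0052), Guca1a by 2.31 ± 0.65 (adjusted p = 0.016), Aipl1 by 3.29 ± 1.12 (adjusted p = 0.039), Gnb3 by 2.32 ± 0.81 (adjusted p = 0.042) and Aanat by 1.01 ± 0.28 (adjusted p = 0.014). The median over the 8 was 2.31, against 0.05 over all genes. Tph1, with the largest difference among the members (3.83 ± 1.68), did not pass (adjusted p = 0.099), nor did Sag (2.86 ± 1.15, adjusted p = 0.075) or Asmt (1.56 ± 0.72, adjusted p = 0.12). In that SHRSP group 2 of the 3 arrays were among the 4 highest in Tph1. Without replicate 2, the array low in Tph1 and high in pituitary markers, 8 of 8 were called, and without replicate 1 or replicate 3 of the group 2 were. Without any 1 of the 3 WKY arrays of that age 3 were called. The shares of all genes called in these fits are not given here, so the changes are not shown to be particular to the members. Some markers of other tissues were called in the same comparison. All 8 meninges and fibroblast markers were higher in SHRSP (median difference 0.39), with summed levels of 11453 to 11701 percent of the 75th percentile on its 3 arrays and 8319 to 9008 percent in WKY. Of the tested markers, 2 of 3 for ependyma and subcommissural organ, 2 of 8 for choroid plexus and 1 of 7 for pituitary were higher. So were 1 of 4 each for habenula, blood, astrocytes and oligodendrocytes and 1 of 3 for retinal photoreceptors, but none for neurons or raphe neurons. With so few markers a list, the smaller counts cannot be told from the 18.6% of all genes called higher. The part of these tissues in the members' differences was not tested.

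Without the 4 arrays, which leaves 1 array of SHRSP at 6 weeks, the differences from WKY came to 0.94 for Gngt2, 0.65 for Guca1a, 1.0 for Aipl1 and 0.48 for Gnb3, and those of Tph1 (-0.03), Asmt (-0.23) and Sag (-0.21) were below 0. The difference of Aanat was 0.89, within its error of the value with all arrays. Since the 4 arrays were picked by the level of one of these genes, the fit without them is a description and no test. With slide as a random block, none of the 5 calls held (adjusted p between 0.069 and 0.24), and with the replicate number as a block 3 held. The SHRSP arrays of 6 weeks shared a slide that held no other group.

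**Figure D5:**
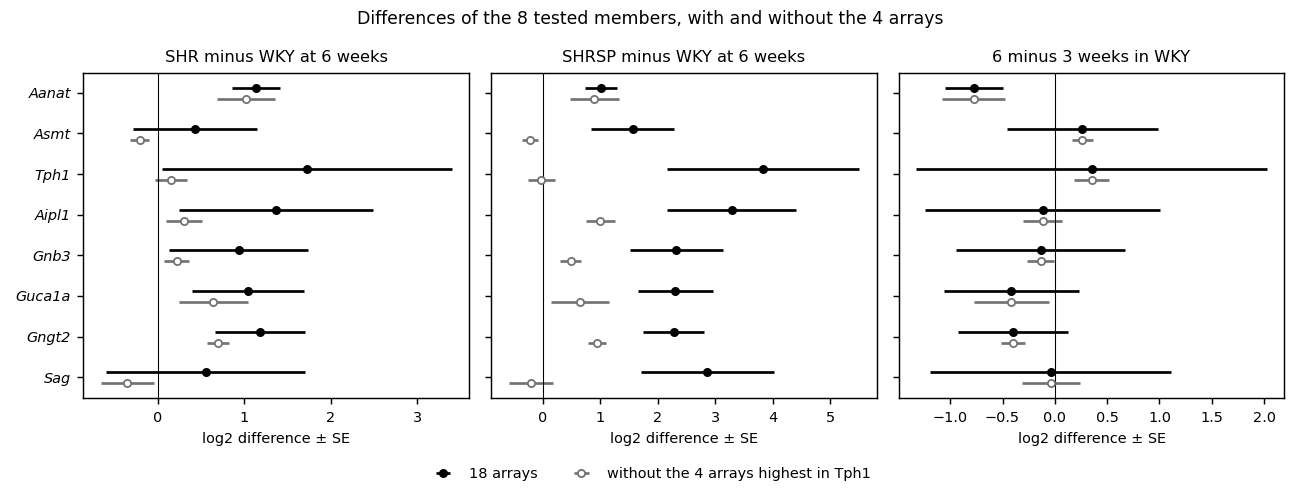
Log2 differences with standard errors (horizontal axis) of the 8 tested members in 3 comparisons, from the fit of all 18 arrays (filled) and without the 4 arrays highest in Tph1 (open). In SHRSP minus WKY at 6 weeks the difference of Tph1 goes from 3.83 to -0.03 and that of Gngt2 from 2.27 to 0.94, while that of Aanat goes from 1.01 to 0.89.

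In size, Aanat kept most of its difference at 6 weeks without the 4 arrays, 0.96 for both strains together against 1.07 with all arrays. At 6 weeks it was higher than in WKY by 1.13 ± 0.28 in SHR (limma adjusted p = 0.005), the only member called there among 41.4% of all genes, and by 1.07 ± 0.24 in SHR and SHRSP together (adjusted p = 0.0039, 37.1% of all genes called). The 3 WKY arrays lay between -5.29 and -5.08 and the 6 arrays of the hypertensive strains between -4.29 and -3.80, without overlap. Such a separation at 6 weeks was seen in 5 of the 8 tested members, the others being Gngt2, Aipl1, Gnb3 and Guca1a. At 3 weeks it was seen in 1, Gngt2. The share of all genes with such a separation was not counted, so these counts cannot be read as particular to the members. At 3 weeks the groups overlapped, the 3 WKY arrays alone covering -5.04 to -3.52, and the difference for both strains together was 0.16 ± 0.24 (adjusted p = 0.62). The difference of 6 weeks for both strains held under each of the other planned settings that could be fitted and with each single array left out, at 0.64 to 1.14 (adjusted p between 0.00025 and 0.045). With slide as a random block it was 1.04 (adjusted p = 0.045), and with slide as a fixed block it could not be fitted. The signals of Aanat were low, between 57.8 and 213 intensity units on the 18 arrays.

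In WKY, Aanat fell by 0.78 from 3 to 6 weeks (SE 0.28, limma adjusted p = 0.035), where 44.4% of all genes were called. That call depended on single arrays: without WKY replicate 2 at 3 weeks, the highest of the 18, the fall was 0.35, and without any one of the WKY arrays of 6 weeks the adjusted p was above the threshold. The age change of the hypertensive strains together minus that of WKY was 0.91 ± 0.34 for Aanat (adjusted p = 0.0499), with 36.5% of all genes called. It was 0.48 without WKY replicate 2 at 3 weeks, and over the alternatives the adjusted p ran from 0.006 to 0.25, above the threshold in most. In the hypertensive strains themselves Aanat differed by 0.13 ± 0.20 between the ages (adjusted p = 0.59).

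The levels of Gngt2 separated WKY from the other strains at both ages. Among arrays outside the 4, Gngt2 lay between -3.36 and -3.28 in WKY at 3 weeks, between -3.01 and -2.79 in SHR and between -2.94 and -2.84 in SHRSP of that age. At 6 weeks it lay between -3.99 and -3.47 in WKY, at -3.0 and -3.04 in SHR and at -2.78 in SHRSP. At each age, every WKY array was below every array of the other strains. The share of all genes with this separation was not counted, so it is not shown to be particular to Gngt2. Outside the 4 arrays at 6 weeks, WKY and the other strains were closer in Aipl1 (-5.67 to -5.52 against -5.34 to -4.61), in Gnb3 (-6.16 to -6.01 against -5.93 to -5.62) and in Guca1a (-5.86 to -5.21 against -5.03 to -4.94). In the fit of all arrays the difference for both strains together was 0.69 ± 0.45 at 3 weeks (limma adjusted p = 0.24, 41.7% of all genes called) and 1.73 ± 0.45 at 6 weeks (adjusted p = 0.0095). Without the 4 arrays it was 0.44 and 0.82, and with a random slide block the value of 6 weeks was 1.59 (adjusted p = 0.091). Guca1a was also called for both strains together at 6 weeks (1.68 ± 0.56, adjusted p = 0.031), but its difference was 0.64 without the 4 arrays and the call did not hold with a random slide block (adjusted p = 0.17). For both strains together at 6 weeks 3 of the 8 members were called, where 37.1% of all genes were. Without SHRSP replicate 2 it was 8, a fit whose share of all genes is not given here.

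No member was called between SHRSP and SHR at 3 weeks (4.31% of all genes) or at 6 weeks (42.8%), between either hypertensive strain and WKY at 3 weeks (28.9% for SHR and 40.9% for SHRSP), or between the ages in SHR (48.2%), in SHRSP (23.4%) or in both together (49.8%). Between SHRSP and SHR at 6 weeks the differences of the 8 members ran from -0.12 (Aanat) to 2.31 (Sag). Their standard errors were 0.28 to 1.68. Each gene has 1 spread for all 6 groups, so the 4 arrays also widened the errors of comparisons without them. Asmt in SHR against WKY at 3 weeks had a standard error of 0.72, with standard deviations of 0.11 in SHR and 0.07 in WKY. This limits what a missing call shows. Single arrays decided some of the counts of calls, which are given without the share of all genes called in the same fit. Without SHRSP replicate 2 at 6 weeks, 6 members were called between SHRSP and SHR of that age, 4 between the ages in SHRSP and 7 between the ages in both strains. Without SHRSP replicate 2 at 3 weeks, which is high in Tph1, 2 were called between the ages in SHRSP and 3 in both strains. Without SHR replicate 2 at 6 weeks 1 was called between SHRSP and SHR, and without WKY replicate 2 at 3 weeks 1 was called in SHRSP and 1 in both strains against WKY of that age.

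The other genes of these pathways were compared between WKY and both hypertensive strains in the same fit. Of all genes, 18.2% were higher and 23.5% lower at 3 weeks, and 23.7% were higher and 13.4% lower at 6 weeks. Among the calls, the share of higher genes was 43.6% at 3 weeks and 63.9% at 6 weeks, and 57.5% and 45.4% with quantile normalization. Of the other melatonin genes 2 of 15 rose and 5 fell at 3 weeks, and 2 rose and 4 fell at 6 weeks. Slc18a1, a vesicular monoamine transporter, was higher by 0.73 ± 0.10 at 3 weeks (limma adjusted p = 9.7e-05) and 0.82 ± 0.10 at 6 weeks (adjusted p = 3.4e-05). Mtnr1a, a melatonin receptor, was lower by 0.53 at 3 weeks (difference -0.53 ± 0.10, adjusted p = 0.001) and did not pass at 6 weeks (0.17 ± 0.10, adjusted p = 0.22). The monoamine oxidases Maoa (-0.23 ± 0.06) and Maob (-0.23 ± 0.06) were lower at 6 weeks, and Gch1 was higher (0.67 ± 0.21, adjusted p = 0.023). None of these, Gch1 apart, had the 4 arrays on top.

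Of the 9 genes of the cyclic AMP and night response, 1 rose and 4 fell at 3 weeks, and 2 rose and 4 fell at 6 weeks. With normexp 0 rose and 2 fell at 3 weeks, and 1 rose and 4 fell at 6 weeks. With quantile normalization 1 rose and 2 fell at 3 weeks, and 1 rose and 4 fell at 6 weeks. Nr4a1, an immediate early nuclear receptor, was lower by 0.76 at 3 weeks (difference -0.76 ± 0.08, limma adjusted p = 8.7e-06) and by 1.43 at 6 weeks (difference -1.43 ± 0.08, adjusted p = 1.4e-08). Of the 19 clock genes, 7 rose and 3 fell at 3 weeks, and 7 rose and 5 fell at 6 weeks. Per2 was higher at both ages (0.58 ± 0.08 and 0.74 ± 0.08) and Bmal1 was lower at 6 weeks (-0.25 ± 0.04, adjusted p = 0.00027). The hour of collection is not given, so clock genes and Aanat, whose transcript follows the time of day, cannot be set against it.

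Of 10 pineal transcription factors tested, 1 fell and none rose at 3 weeks, and 1 rose and 2 fell at 6 weeks. These counts turned with the scaling: with quantile normalization 2 rose and 0 fell at 3 weeks and 0 rose and 3 fell at 6 weeks, and with normexp the only call was 1 that rose at 6 weeks. The one that rose was Lhx4 (0.89 ± 0.32, limma adjusted p = 0.044), which had the 4 arrays on top, and with quantile normalization it did not pass (0.79, adjusted p = 0.07). Of 23 other phototransduction genes tested, 3 rose and 7 fell at 3 weeks, and 7 rose and none fell at 6 weeks. At 3 weeks 1 rose and 3 fell with normexp, and 3 rose and 4 fell with quantile normalization. Gnat1, the alpha subunit of rod transducin, was lower by 0.77 at 3 weeks (difference -0.77 ± 0.16, adjusted p = 0.0021) and higher by 0.66 ± 0.16 at 6 weeks (adjusted p = 0.007). Gucy2e, a guanylate cyclase of the retina, did likewise, with -0.66 ± 0.13 at 3 weeks and 0.52 ± 0.13 at 6 weeks. Neither gene had the 4 arrays on top. Over these 23 the median difference was -0.17 for the younger and 0.19 for the older rats, where all genes had -0.01 and 0.04. The value of the younger rats was -0.06 with normexp and -0.04 with quantile normalization.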

How the data were processed

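Intensities (Cy3, 1 colour) were deposited as scanner output of Agilent Feature Extraction 10.5.1.1, per the submitters' processing notes, and the authors' processed signal is background-subtracted by that software. The 9 members and all gene lists were chosen with earlier results of these data known. Spots marked as outliers were left out (0.445% to 1.49% an array), the signal was divided by each array's 75th percentile, log2 was taken and spots of a probe were averaged. Probes had to be well above background on all 3 arrays of at least 1 group, and the brightest such probe stood for its gene (21204 genes). limma 3.58.1 (R 4.3.3) fitted the 6 groups together with 13 contrasts, and was tested on simulated data. The number of arrays limits the precision, and p-values measure the spread between arrays within groups, pooled over the 6 groups. All 9 members are named. Other genes named are the 10 with the highest r to the melatonin genes, or called list genes with the smallest adjusted p, up to 4 a list and comparison. Others, such as those from the searches for the 4 arrays and the marker lists, were chosen after their values were seen. The alternatives were normexp, quantile normalization, no filter, slide or replicate number as a block, the compared groups alone and each array left out. The fit without the 4 arrays highest in Tph1 was chosen after seeing the data.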

Additional observations from a re-analysis of the deposited data

Results flagged for a closer look

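The age change of Aanat in SHR and SHRSP together differed from that in WKY by 0.91 on the log2 scale (SE 0.34, limma adjusted p = 0.0499, a test of the difference itself). This is listed because the effect of age differed between strains. Over the alternatives the value ran from 0.48 to 1.24 and the adjusted p from 0.006 to 0.25.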

How the results depend on the processing

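Counts are members called of 8 tested, by limma. The share of all genes called under each alternative is not given here, so a change in a count is not shown to be particular to the members. Counts without the 4 arrays are descriptions and no tests: those arrays were picked by a member's own level, which narrows the members' spread (the SE of Asmt in SHR against WKY at 6 weeks goes from 0.72 to 0.11), and SHRSP at 6 weeks keeps 1 array, assumed to vary like the other groups. In SHRSP against WKY at 6 weeks 5 were called, 3 without the filter on dim probes, 3 with the replicate number as a block, 2 with the compared groups alone, 0 with slide as a random block and 2 without the 4 arrays. In SHR against WKY at 6 weeks 1 was called, 0 with the random slide block and 2 without the 4 arrays. For both strains together at 6 weeks 3 were called, and 1 with the random slide block. In WKY from 3 to 6 weeks 1 was called, 0 with normexp, 0 with slide as a fixed block, 0 with it as a random block and 3 with the compared groups alone. The age change of both strains minus that of WKY had 1 call, and 0 with normexp, 0 with quantile normalization, 0 without the filter, 0 with the random slide block and 2 without the 4 arrays. Comparisons with 0 calls had 1 in SHR against WKY at 3 weeks with the compared groups alone and 1 without the 4 arrays, and without the 4 arrays 1 in SHRSP against WKY at 3 weeks, 1 in both strains against WKY at 3 weeks, 1 between the ages in SHRSP and 2 between the ages in both strains. With each array left out in turn, counts ran from 2 to 8 in SHRSP against WKY at 6 weeks, 2 to 8 in both strains against WKY at 6 weeks, 0 to 6 in SHRSP against SHR at 6 weeks, 0 to 4 between the ages in SHRSP, 0 to 7 between the ages in both strains, and 0 to 1 in SHRSP against WKY at 3 weeks, both strains against WKY at 3 weeks, WKY between the ages and the difference of age changes. Of single members, Gngt2 from 3 to 6 weeks in WKY, not called at -0.40, was 0.21 with the fixed slide block. The cause of these changes was not tested. Same-numbered arrays of different groups had correlations of their deviations between -0.14 and 0.17, so the numbers share no pairing. With the fixed slide block the strain comparisons at 6 weeks, the age comparisons in SHR and SHRSP and the difference of age changes could not be fitted, since the SHR arrays and the SHRSP arrays of 6 weeks each filled a slide of their own. Signal close to background limits Crx and the second Sag probe.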
